A study of Mus musculus with 26 samples.

Results

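The second cycle of constant darkness was compared with the first in the choroid plexus of sham-operated mice. The comparison took in the 12 Ctrl libraries among the 26 samples of the series, 6 from the first cycle (CT0, CT4, CT8, CT12, CT16 and CT20) and 6 from the second (CT24, CT28, CT32, CT36, CT40 and CT44), and each library of the second cycle was set against the library of the same phase in the first, CT24 against CT0 and so on. A gene was tested where its mean over the 12 libraries reached at least 1 CPM (counts scaled to a common library size), which held for 13773 of the 55416 genes in the table.

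All mice of both cycles were adult male C57Bl6J animals that had undergone sham surgery, had been kept in a 12 h light and 12 h dark cycle for a week, and then stayed in darkness from the morning that was named CT0. The cycles therefore share genotype, surgery and housing and differ in the length of time without light. At each time point 1 mouse was killed and the choroid plexus of its 4th ventricle was taken for RNA-seq, so that every library is another mouse and each p-value below measures the spread among these single mice. The same sampling of 12 mice with a lesion of the suprachiasmatic nuclei (SCNx) served once, for the shift in level. The labels name no batch. The column headers carry a number whose meaning is not stated. It ran from 11 to 62 in the first cycle and from 13 to 65 in the second. The order of preparation is not stated, and any difference of collection or preparation between the cycles cannot be told apart from the cycle.

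The choroid plexus is a sheet of epithelium around a vascular core that secretes cerebrospinal fluid and exports transthyretin and other proteins into it. Its cells carry the circadian clock, a feedback loop in which CLOCK and BMAL1 activate the genes of their own repressors, the PER and CRY proteins, while REV-ERB and ROR receptors act in opposite directions on the gene of BMAL1. In the absence of light such a rhythm free-runs, and its amplitude can fall from cycle to cycle when the cells or animals that carry it drift apart. A comparison of consecutive cycles hence asks whether levels drift, whether peaks return at the same phase, and whether amplitudes fall.

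The libraries held between 38751162 and 46672618 estimated counts in the first cycle and between 41104177 and 47335226 in the second. The summed level of the 11 epithelium markers, among them Ttr and Enpp2, lay between 143600 and 166300 CPM in the first cycle and between 152000 and 167000 in the second, so that both cycles held abundant epithelial RNA. Markers of other cells stood apart in single libraries. All 15 hepatocyte markers peaked in Ctrl CT16 within the first cycle, where their sum was 2780 CPM against at most 7.69 in the other 5 libraries, and in the second cycle Ctrl CT40 was the highest with 42.8 CPM against at most 6.11. Ctrl CT4 held 355 CPM of neuron and cerebellum markers and 655 CPM of astrocyte markers, against at most 33.7 and 70.6 CPM in the rest of its cycle. Several counts and medians that moved by over 1.5 times or turned without these libraries are given both ways. Length classes, counts of pairs and the unadjusted p counts of Ctrl levels were not computed without them. In bulk RNA, fewer cells of a type and less RNA per cell cannot be told apart.

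**Figure D1:**
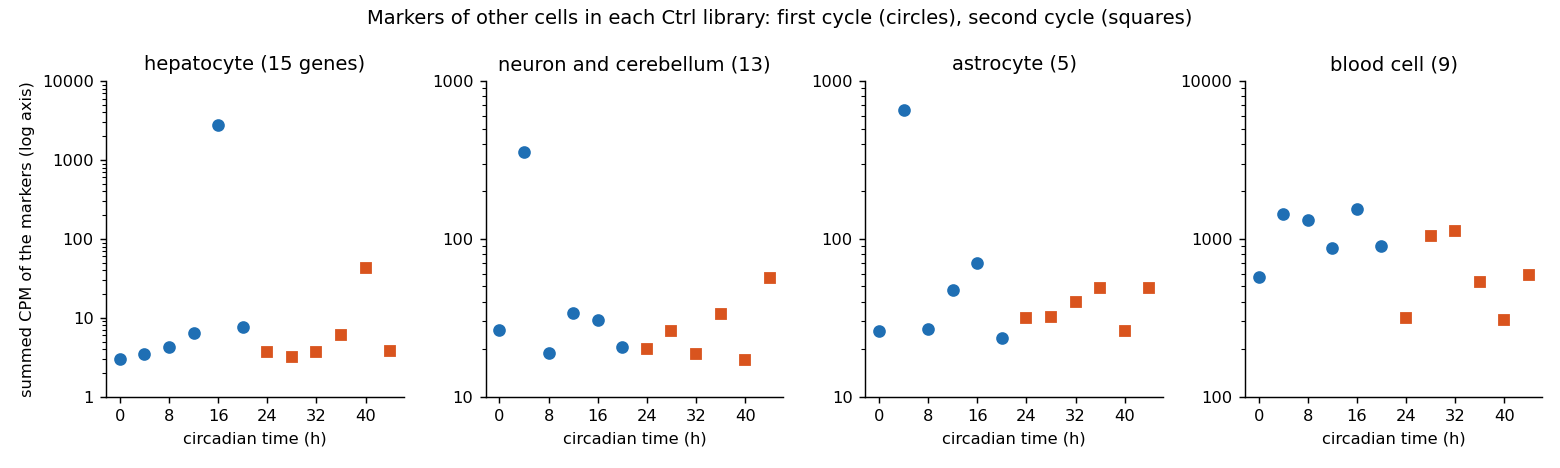
Summed CPM (log axis) of the markers of 4 other cell classes in each of the 12 Ctrl libraries against circadian time in h, with circles for the first cycle and squares for the second. Ctrl CT16 and, far below it, Ctrl CT40 stand out for hepatocyte markers and Ctrl CT4 for neuron and astrocyte markers, while the blood cell markers were lower in the second cycle in 6 of 6 pairs.

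The core clock ran through both cycles at closely similar phases, and no difference of amplitude passed a test. Of 21 clock genes, 19 reached the minimum level (Arntl2 and Rorb did not), and all 19 had a rhythm when both cycles were fitted together. By edgeR's quasi-likelihood F test, after Benjamini-Hochberg adjustment, 14 passed within the first cycle alone and 13 within the second, beside 1.52% and 1.2% of all tested genes. These counts moved with single libraries, to 8 in the first cycle without Ctrl CT20 and to 9 without CT12, and to 5 in the second without Ctrl CT36, 7 without CT24 and 8 without CT28, CT32 or CT44. Amplitude is given here as the height of a fitted 24 h cosine above its mean on the log2 CPM scale. The ratio of the amplitude in the second cycle to that in the first had a median of 1.04 over the 19 genes, from 0.639 for Rora to 1.28 for Clock, and was below 1 for 7 of them. Without 1 library the median lay between 0.976 (without Ctrl CT24) and 1.07 (without Ctrl CT44), on either side of equality. All 19 peaks returned within 2 h, with a median shift of -0.167 h and a later peak in the second cycle for 7.

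Among the activators, Arntl, which encodes BMAL1, stood at 39.5, 17.4, 2.94, 2.58, 6.72 and 27.9 CPM from CT0 to CT20 and at 39.55, 13.8, 2.57, 2.00, 7.52 and 33.4 CPM from CT24 to CT44. Its mice were high around CT0 and CT24 and lowest at CT12 and CT36, and each phase pair differed far less than the phases did. The amplitude was 2.14 in the first and 2.33 in the second cycle (SE 0.09 each), a change of 0.19 with a 95% interval from -0.11 to 0.49, and the fitted peak lay at 23.03 h and 22.65 h. Npas2, the CLOCK-like partner of BMAL1, followed the same course with 26.5, 17.6, 6.08, 5.38, 5.24 and 13.7 CPM and then 29.7, 14.6, 5.68, 4.92, 6.34 and 15.8 CPM. Its amplitudes of 1.26 and 1.31 differed by 0.05 (95% interval -0.35 to 0.45). Clock itself had a shallow rhythm, with amplitudes of 0.37 and 0.47, and passed the test in neither cycle alone (edgeR, Benjamini-Hochberg adjusted p = 0.154 and 0.0758).

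Nr1d1, which encodes the repressor REV-ERB alpha, stood at 10.7, 73.6, 92.4, 41.9, 12.8 and 2.52 CPM in the first cycle and at 13.6, 74.0, 71.9, 49.7, 7.12 and 2.54 CPM in the second. It was high from 4 to 12 h after the start of each cycle, and its amplitudes of 2.48 and 2.51 left a wide interval for the difference, 0.03 from -0.84 to 0.91. Nr1d2, its paralogue, had amplitudes of 1.31 and 1.38. Rora, a ROR receptor that activates through the same sites, had the smallest amplitude of the 19 genes in the first cycle, 0.28, and 0.18 in the second (difference -0.10, 95% interval -0.30 to 0.09).

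The PER and CRY genes encode the proteins that close the loop by repressing CLOCK and BMAL1, and none of them passed a test of a difference between the cycles. Per2 stood at 18.4, 8.94, 31.0, 78.1, 60.1 and 47.8 CPM and then at 17.4, 11.5, 31.6, 61.7, 51.6 and 44.2 CPM. The second cycle was lower at the crest and higher in the trough, and the amplitude went from 1.43 to 1.17, a difference of -0.26 with a 95% interval from -0.89 to 0.37. Per3 passed the test in both cycles (edgeR, Benjamini-Hochberg adjusted p = 0.00231 and 0.00326), with 52.9 CPM at CT12 and 42.8 CPM at CT36 and amplitudes of 1.30 and 1.19. Cry1, the late member of the family, stood at 20.3, 9.08, 8.28, 21.1, 27.2 and 33.5 CPM and at 22.97, 10.8, 9.43, 18.6, 30.3 and 35.2 CPM, and its amplitudes of 1.04 and 0.99 differed by -0.05 (95% interval -0.37 to 0.28). Per1 had amplitudes of 0.73 and 0.77 and Cry2 of 0.37 and 0.46, with neither passing within a single cycle.

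Dbp, a PAR bZIP activator driven by CLOCK and BMAL1, ranked at the top by rhythm p in both cycles. It stood at 8.68, 31.2, 105, 129, 36.1 and 11.5 CPM in the first cycle and at 10.4, 36.3, 115, 136, 35.0 and 11.5 CPM in the second. Both courses rose to a crest at the fourth time point (edgeR, Benjamini-Hochberg adjusted p = 1.158e-05 and 1.171e-05), with amplitudes of 2.05 and 2.03 and a difference of -0.03 (95% interval -0.22 to 0.17). Tef, a relative of Dbp, had amplitudes of 1.04 and 1.12, Hlf, the other PAR bZIP factor, of 0.56 and 0.53, and Nfil3, which represses through the same sites, of 1.18 and 1.02. Among the repressors that bind E-boxes, Ciart stood at 0.475, 1.18, 6.57, 16.3, 2.11 and 0.58 CPM and at 0.166, 0.565, 6.52, 17.5, 1.94 and 0.653 CPM. Its crest was alike and its trough deeper in the second cycle, and the amplitudes of 2.48 and 2.98 differed by 0.51 with an interval from -0.46 to 1.47. Bhlhe41 had amplitudes of 1.13 and 1.14 and Bhlhe40 of 0.36 and 0.37.

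**Figure D2:**
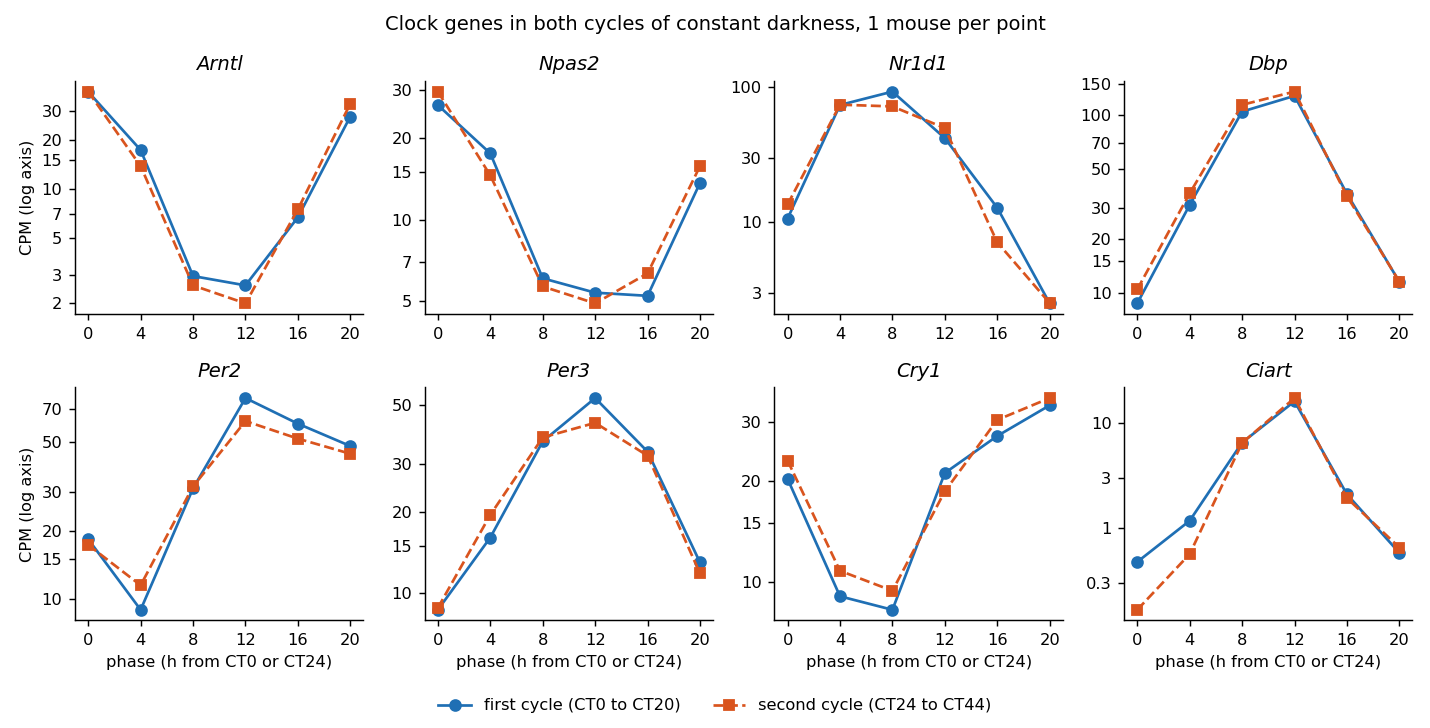
CPM (log axis) of 8 clock genes against phase, with blue circles for the first cycle (CT0 to CT20) and orange squares for the second (CT24 to CT44) and 1 mouse per point. The curves of both cycles lie close together in each panel. The highest points of Per2 (78.1 and 61.7 CPM), Per3 (52.9 and 42.8 CPM) and Nr1d1 (92.4 and 74.0 CPM) are lower in the second cycle, and that of Cry1 (33.5 and 35.2 CPM) is higher.

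No difference of rhythm between the cycles passed a test in any clock gene. The smallest p was that of Arntl, 0.1146 (edgeR quasi-likelihood F test, Benjamini-Hochberg adjusted p = 1), and 0 of 19 had an unadjusted p under 0.05 for a change of rhythm, of amplitude or of phase. In level, only Hlf was under 0.05 before adjustment (log2 fold change -0.19, edgeR Benjamini-Hochberg adjusted p = 0.533), and the other members lay between -0.30 (Ciart) and 0.19 (Nfil3). With the phase of each pair as a block, a fit added after the data had been seen, the p of Arntl for a difference of rhythm was 0.03003, with an adjusted p of 0.9986 by the same edgeR test.

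The windows around the start sites of 4 of these genes are shown, picked by hand among those with a match. They hold elements through which the loop is known to act, and the genes return at fixed but different phases. Each window runs from 250 bases before to 50 bases after the start of the RefSeq gene on GRCm38.p6, is read 5′ to 3′ on the strand of the gene, and carries in capitals each match to CACGTG (the E-box bound by CLOCK and BMAL1), TTATGNAA (the D-box bound by DBP, TEF, HLF and NFIL3) or AGGTCA (the core of the element bound by REV-ERB and ROR receptors) on either strand.
Arntl (chr7:113207261-113207560, plus strand): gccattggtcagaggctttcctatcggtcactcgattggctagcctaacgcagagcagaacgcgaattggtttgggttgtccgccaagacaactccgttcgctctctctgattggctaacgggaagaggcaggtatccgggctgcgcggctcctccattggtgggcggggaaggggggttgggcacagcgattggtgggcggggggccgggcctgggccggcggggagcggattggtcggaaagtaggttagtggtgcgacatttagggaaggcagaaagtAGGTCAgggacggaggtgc
Ciart (chr3:95882179-95882478, minus strand): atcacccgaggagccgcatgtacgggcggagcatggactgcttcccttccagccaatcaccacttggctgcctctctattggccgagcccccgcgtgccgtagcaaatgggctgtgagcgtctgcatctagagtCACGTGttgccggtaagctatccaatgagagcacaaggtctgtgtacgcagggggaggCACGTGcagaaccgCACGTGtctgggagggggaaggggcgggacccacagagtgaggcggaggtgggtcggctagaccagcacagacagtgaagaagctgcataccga
Per1 (chr11:69098699-69098998, plus strand): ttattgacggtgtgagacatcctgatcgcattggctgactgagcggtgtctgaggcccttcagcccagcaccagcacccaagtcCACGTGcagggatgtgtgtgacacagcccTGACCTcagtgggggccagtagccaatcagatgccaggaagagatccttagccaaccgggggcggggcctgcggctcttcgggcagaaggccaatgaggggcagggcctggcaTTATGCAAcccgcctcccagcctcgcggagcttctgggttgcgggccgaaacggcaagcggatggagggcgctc
Per3 (chr4:151044616-151044915, minus strand): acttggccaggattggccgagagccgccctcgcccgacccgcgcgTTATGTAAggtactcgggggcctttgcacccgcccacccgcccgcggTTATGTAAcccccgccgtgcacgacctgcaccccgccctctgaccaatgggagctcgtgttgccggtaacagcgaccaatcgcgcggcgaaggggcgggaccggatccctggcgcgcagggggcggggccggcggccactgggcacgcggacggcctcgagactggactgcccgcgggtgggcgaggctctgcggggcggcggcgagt
Arntl, peaking near 23 h, held 1 AGGTCA and neither of the other motifs, Ciart, peaking near 11 h, held 3 CACGTG, Per3, also near 11 h, held 2 TTATGNAA, and Per1, near 14 h, held 1 of each. The relation of motif to time of peak was not tested. Of the 19 clock genes 16 had a window. The counts that follow are of genes, while the shares beside them are of windows. CACGTG occurred in 5 of the 16 (Bhlhe41, Ciart, Cry1, Per1 and Tef) beside 7.15% of 32851 windows, TTATGNAA in 2 (Per1 and Per3) beside 3.38%, and AGGTCA in 5 (Arntl, Clock, Nfil3, Nr1d2 and Per1) beside 16.3%. A match is a description of these letters and not a measured binding site, and AGGTCA can overlap the other motifs by 1 or 2 letters, which does not occur in the windows shown.

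Judged by the clock genes, each library of the second cycle was most like the library of its own phase. Pearson's r over the 19 genes, centred within each cycle, lay between 0.909 (CT40 with CT16) and 0.99 (CT44 with CT20) for the 6 pairs of equal phase, and reached at most 0.861 (CT32 with CT12) for the 30 pairs of unequal phase. Over all tested genes the likeness was far weaker. Only 3 of 6 libraries matched their own phase best, and r for equal phase ran from -0.177 (CT44 with CT20) to 0.583 (CT40 with CT16). Without the genes that Ctrl CT16 or Ctrl CT4 held at over 10 times the median of their cycle, the range was -0.0415 to 0.515, the CT40 and CT16 pair gave the lowest value, and again 3 of 6 matched best. These values describe libraries that share depth and tissue and carry no test.

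Across the transcriptome, 209 genes had a rhythm in the first cycle (1.52% of those tested) and 165 in the second (1.2%), and 98 had one in both (0.712%), which is 46.9% of the first list and 59.4% of the second. The tests within a cycle rest on 6 mice and 3 fitted terms, and the counts moved with single libraries, between 62 without Ctrl CT16 and 316 without Ctrl CT4 for the first cycle and between 16 without Ctrl CT36 and 410 without Ctrl CT4 for the second. Of the 209 genes, 48 had a level in Ctrl CT16 over 10 times the median of their cycle, among them Fgg, which encodes the gamma chain of fibrinogen, Serpina3k and Mup1. Their 24 h fit rests on a single mouse, and without them 161 and 95 genes remained in the first list and in both.

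Outside the clock lists, Rapgef5 and Tspan4 were among the top 10 genes by p in both cycles. Rapgef5, an exchange factor for small GTPases, stood at 83.3, 60.02, 27.8, 21.8, 39.9 and 73.2 CPM and at 79.4, 54.3, 24.3, 19.3, 39.7 and 65.5 CPM. It was lower in the second cycle in 6 of 6 pairs, by 0.13 ± 0.04 (SE) on the log2 scale (edgeR, Benjamini-Hochberg adjusted p = 0.5325), while its amplitudes of 1.001 and 1.032 and its peaks at 23.1 and 22.9 h were alike. Tspan4, a tetraspanin, stood at 21.2, 24.7, 38.6, 65.6, 47.0 and 25.6 CPM and at 20.3, 25.95, 46.4, 62.2, 41.4 and 23.6 CPM, with amplitudes of 0.80 and 0.82. Wee1, the kinase that delays entry into mitosis and is driven through E-boxes, had amplitudes of 0.67 and 0.65 with peaks at 14.1 and 13.8 h. Fam189a2 had amplitudes of 0.54 and 0.44, Btbd10 of 0.44 and 0.51 and Ikzf4, a zinc finger factor of the Ikaros family, of 0.67 and 0.76. All of these passed the rhythm test in both cycles.

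The 100 top genes by p in 1 cycle were followed into the other. The fitted rhythm behind each choice came from 1 cycle, but its p used a spread estimated from the mice of both. A gene whose mice in the other cycle scattered widely about their own fit was thus less likely to be chosen. The agreement is therefore not fully independent of the mice measured. Of the 100 chosen in the first cycle, 99 peaked within 4 h and 97 within 2 h of their time in the second, and of the 100 chosen in the second, 100 and 97 did so in the first. Over all 13773 tested genes these shares were 61.2% and 38.7%. The median amplitude of the first choice was 0.67 in the first cycle and 0.64 along the same phase in the second, with a median of 85.8% kept per gene. The second choice had 0.507 in its own cycle and 0.464 in the other, with 91.5% kept. Both choices were smaller in the cycle whose rhythm had not been used for the choice, whether that cycle was the earlier or the later. Without the clock lists 99 and 99 of 100 stayed within 4 h, and without the genes rich in Ctrl CT16 or Ctrl CT4 it was 99 and 100. The first choice held 28 genes rich in Ctrl CT16 and the second 3. Without the genes rich in either library, the first choice had median amplitudes of 0.527 and then 0.444, with 90.5% kept per gene. The second choice had 0.495 in its own cycle and 0.444 in the other, with 91% kept.

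No loss of amplitude passed a test, and among genes with a common rhythm more had the larger than the smaller amplitude in the second cycle. In 2015 genes (14.6%) a rhythm common to both cycles passed the test, and in these the median amplitude was 0.221 in the first cycle and 0.229 in the second. The median ratio of second to first was 1.03 (quartiles 0.815 and 1.28), and 939 genes (46.6%) had the smaller amplitude in the second cycle. Over all tested genes the ratio was 1.02 and the share 48.9%. Peaks came back within 2 h for 1745 of the 2015 genes and within 4 h for 2014, with a median shift of -0.109 h. Over all tested genes 38.7% came back within 2 h and 61.2% within 4 h. The 2015 genes were chosen by a rhythm common to the same 12 libraries. A gene with unlike peaks would tend to fail that test, so the choice itself favours agreement. Without the genes rich in Ctrl CT16 or Ctrl CT4, 1944 genes remained, and 869 of them (44.7%) had the smaller amplitude in the second cycle. Among these 1944 the ratio by time of peak was lowest for the 146 genes that peak from 0 to 4 h (0.948). It was highest for the 297 that peak from 4 to 8 h (1.14).

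**Figure D3:**
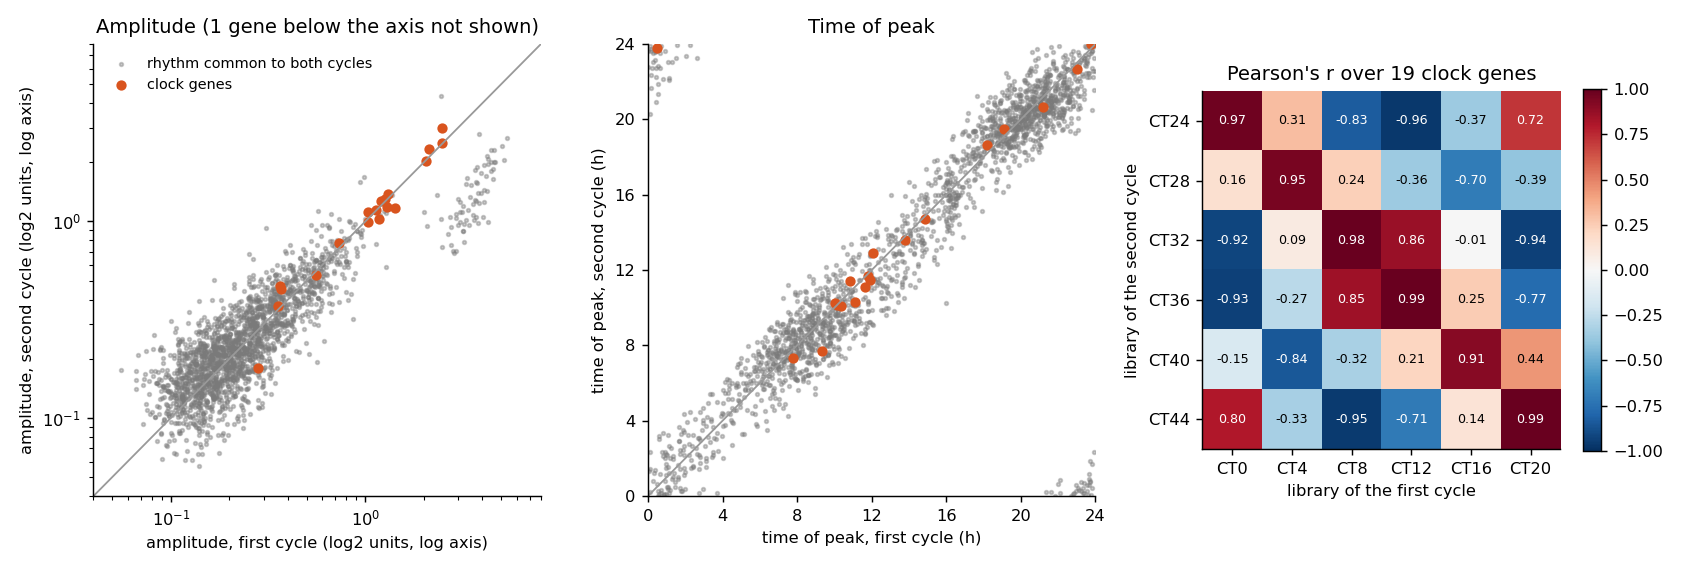
Left, amplitude in the second against the first cycle (log2 units, both axes logarithmic, line of equality) for genes with a common rhythm (grey) and clock genes (orange), and middle, their times of peak in h; Mup19, at 0 CPM in all libraries of the second cycle, falls below the left axis. Right, Pearson's r of each library of the second cycle with each of the first over 19 clock genes. Points lie along the line of equality apart from a group of high amplitude in the first cycle and smaller amplitude in the second, and r on the diagonal is 0.909 to 0.99. All 13 hepatocyte markers with a common rhythm had the smaller amplitude in the second cycle. Over the 15 tested hepatocyte markers the median amplitudes were 4.08 and 1.93.

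The tests of a difference called no gene. For a difference of rhythm, 0 of 13773 genes passed in edgeR (0%), 267 (1.94%) had an unadjusted p under 0.05, and DESeq2's likelihood ratio test called 2. For a change of amplitude along the common phase limma called 0 (0%), with 327 (2.37%) under 0.05. For a change of phase it called 0 (0%), with 318 (2.31%) under 0.05. By chance 689 genes would be under 0.05 in each test, more than any of them gave. These fits did not pair the libraries by phase, and a shared course unlike a cosine counts in them as spread. A gene that did not pass therefore need not have had equal rhythms. With the phase as a block, a fit added after the data had been seen, edgeR also called 0 for a difference of rhythm. The lowest p for unequal rhythms was that of Rpl27-ps3, a pseudogene of a ribosomal protein gene, at 0, 0, 0, 2.53, 0.851 and 0 CPM in the first cycle and at 3.63, 1.76, 2.57, 2.63, 2.85 and 2.81 CPM in the second. It was at 0 in 4 mice of the first cycle and present in all of the second (edgeR, Benjamini-Hochberg adjusted p = 0.3403), and since it shares reads with near-identical copies its counts are uncertain. Gm10108, Serpina10, Rpl35a-ps3 and Mup10 followed, each at or near 0 in most libraries, with the liver genes Serpina10 and Mup10 at 13.02 and 139.7 CPM in Ctrl CT16. The rest of the 10 lowest by p, Tmem181b-ps, Gm21781, Nap1l5, Cyp46a1 and Gm34721, were detected in all 12 libraries, and none passed.

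Among genes with a common rhythm, the 5 that ranked highest by p for a smaller amplitude in the second cycle were Tnxb, Alas1, Olfm1, Prpf39 and Fmo2. Tnxb, a tenascin of connective tissue, stood at 8.88, 14.7, 16.95, 21.0, 19.4 and 12.0 CPM and at 12.2, 15.6, 14.3, 17.4, 13.5 and 12.9 CPM. Its crest was lower and its trough shallower in the second cycle, and its amplitude went from 0.56 to 0.19, a change of -0.38 with a 95% interval from -0.67 to -0.09. Fmo2, a flavin monooxygenase, went from an amplitude of 1.28 to 0.58, with a change of -0.70 along the common phase that was -0.34 without Ctrl CT28. The amplitude of Alas1, the rate-limiting enzyme of heme synthesis, went from 0.25 to 0.12. In the other direction Zbtb26 went from 0.31 to 0.93 and Serinc5, a lipid scramblase, from 0.14 to 0.40, a change of 0.26 that was 0.16 without Ctrl CT0. None of the 10 genes passed the adjustment, for which the smallest limma value after Benjamini-Hochberg adjustment was 0.9997.

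Genes of the endoplasmic reticulum (ER), which fold and check secreted proteins, shared a daily course that came back in the second cycle. Of 33 tested members of the list, 25 had a common rhythm (14.6% of all tested genes did). All 25 peaked within 2 h of the same phase, and 20 of the 25 had the smaller amplitude in the second cycle. Among all genes with a common rhythm, a choice that favours agreement of peaks, these shares were 86.6% and 46.6%. Hspa5, the chaperone BiP, stood at 1603, 1203, 761, 736, 2119 and 2018 CPM and at 1731, 1324, 929, 824, 1990 and 2163 CPM. The second cycle was higher in the trough, from CT32 to CT36, and at 5 of 6 phases, and its amplitude went from 0.80 to 0.70, a difference of -0.10 with a 95% interval from -0.58 to 0.38. Calr, which encodes calreticulin, had amplitudes of 0.69 and 0.54, and its trough was 689 CPM at CT12 and 774 CPM at CT36. Herpud1, which takes part in degradation at the ER, passed the rhythm test in both cycles (edgeR, Benjamini-Hochberg adjusted p = 0.00651 and 0.0161) with amplitudes of 0.61 and 0.55. Xbp1, a transcription factor of the unfolded protein response, passed in both as well, with 0.58 and 0.62, and so did Creld2 with 0.95 and 0.87.

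The level of the ER list was slightly higher in the second cycle, without a call. Its median log2 fold change was 0.06 beside -0.01 over all tested genes, and 23 of 33 were positive beside 46% of all. Before adjustment 7 were higher and 1 lower at p under 0.05, beside 569 and 677 of all 13773. Hyou1, a chaperone of the ER lumen, stood at 218, 180, 118, 117.5, 335 and 295 CPM in the first cycle and at 243, 197, 135.5, 129, 350 and 325 CPM in the second. It was higher at 6 of 6 phases by 0.14 ± 0.03 (SE) on the log2 scale, with an adjusted p of 0.5008 in edgeR and of 0.007802 in DESeq2's Wald test, both after Benjamini-Hochberg adjustment. Sdf2l1 (0.20 ± 0.07), Creld2 (0.17 ± 0.06) and Manf (0.13 ± 0.05), all targets of the ER stress response, were higher at 5 of 6 phases, and Ddit3, the stress factor CHOP, was lower at 6 of 6 (-0.18 ± 0.05), with edgeR's Benjamini-Hochberg adjusted p of 0.5325 for each.

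Heat shock genes and the cold-inducible RNA-binding proteins, which respond to body temperature in opposite directions, kept opposite phases in both cycles. Of 20 tested heat shock genes, 16 had a common rhythm (14.6% of all tested genes did). All 16 returned within 2 h, as did 86.6% of all genes with a common rhythm, a choice that favours such agreement. Chordc1, a co-chaperone of HSP90, passed in both cycles (edgeR, Benjamini-Hochberg adjusted p = 0.00722 and 0.00594) with peaks at 18.9 and 19.6 h, and so did Fkbp4, an immunophilin of the HSP90 complex, with peaks at 20.1 and 20.6 h. Hsp90aa1 stood at 1444, 1002, 935, 948, 1422 and 1611 CPM and at 1321, 1201, 1011, 952, 1414 and 1801 CPM. Cirbp, induced by mild cold, stood at 18.4, 36.1, 36.8, 36.8, 14.6 and 14.9 CPM and at 21.5, 31.1, 39.8, 35.7, 22.8 and 10.9 CPM, with an amplitude of 0.82 in each cycle and peaks at 7.58 and 8.38 h. Rbm3, the other cold-inducible gene, had 0.55 and 0.63.

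**Figure D4:**
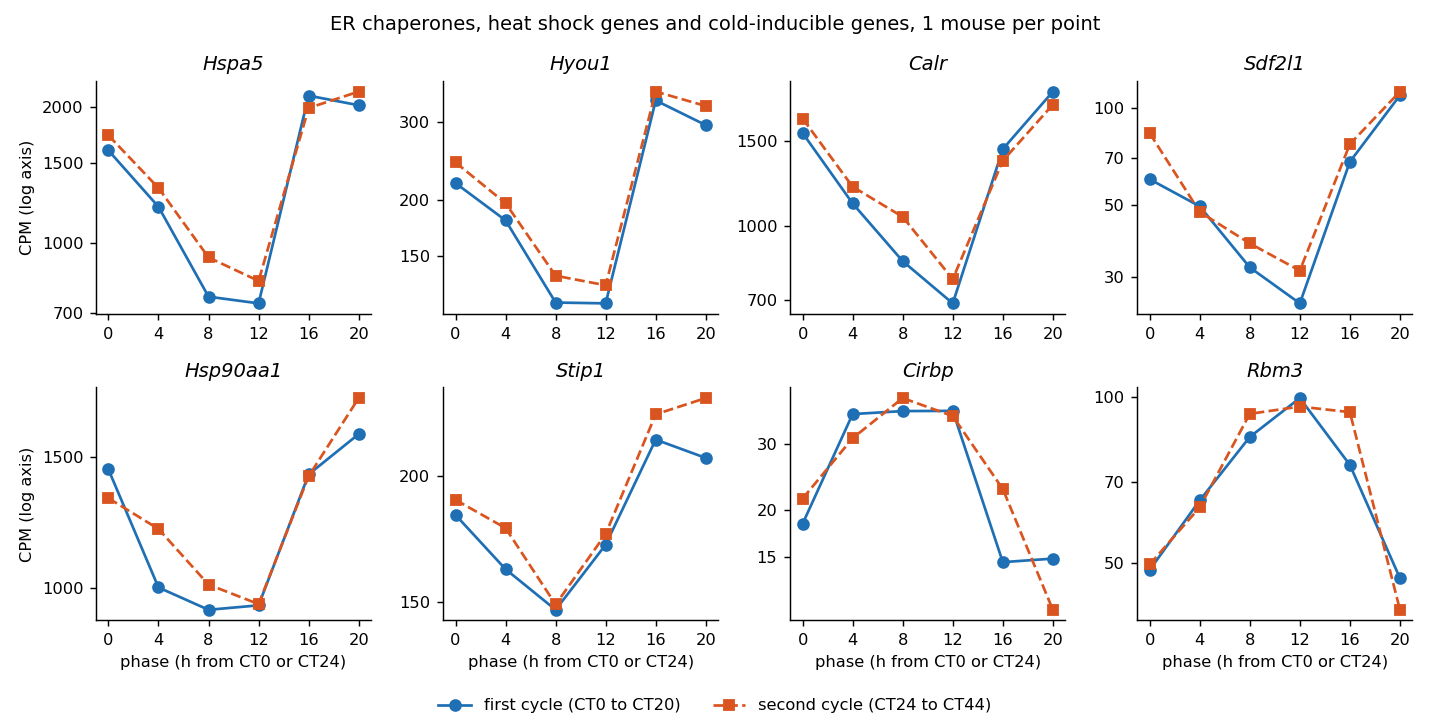
CPM (log axis) of ER chaperones (Hspa5, Hyou1, Calr, Sdf2l1), heat shock genes (Hsp90aa1, Stip1) and cold-inducible genes (Cirbp, Rbm3) against phase, blue circles for the first and orange squares for the second cycle, 1 mouse per point. ER and heat shock genes were high at phases 16 and 20 h and cold-inducible genes at 8 and 12 h in both cycles, and Hyou1 was higher in the second cycle at 6 of 6 phases.

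Most levels moved little between the cycles. The median log2 fold change, second against first, was -0.01 over the 13773 genes, the median absolute value 0.07 and the 95th percentile of the absolute value 0.37. By edgeR's quasi-likelihood F test with the phase as a block and Benjamini-Hochberg adjustment, 0 genes were higher (0%) and 5 lower (0.0363%) in the second cycle. Before adjustment, 1246 genes (9.05%) had p under 0.05, 569 higher and 677 lower, where 689 would be under 0.05 by chance. In 423 genes (3.07%) all 6 pairs were higher in the second cycle and in 318 (2.31%) all 6 were lower, while the cycles did not overlap at all for 21 genes higher (0.152%) and 2 lower (0.0145%).

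The 5 genes with a lower level were Fgb, Fga and Fgg, the chains of fibrinogen, and Orm1 and Saa2, acute phase proteins of the liver. Each was high in a single mouse of each cycle. Fgb stood at 281 CPM in Ctrl CT16 and at 2.40 CPM in Ctrl CT40, Orm1 at 175.5 and 2.47 CPM, and Saa2 at 350 and 6.47 CPM, and no other library was above 0.253 CPM for any of the 5. The log2 fold changes ran from -6.81 ± 0.27 (SE, Fgb, edgeR Benjamini-Hochberg adjusted p = 0.003755) to -5.71 ± 0.31 (Saa2, adjusted p = 0.02587), and they compare 2 mice. Without the CT16 and CT40 pair these genes were below the minimum level and 0 lower genes were called, and 0 were called without the phase as a block or by limma. The next 5 in this direction, Mup11, Apon, Apoa4, Pzp and Hamp, are liver genes of the same course and did not pass.

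**Figure D5:**
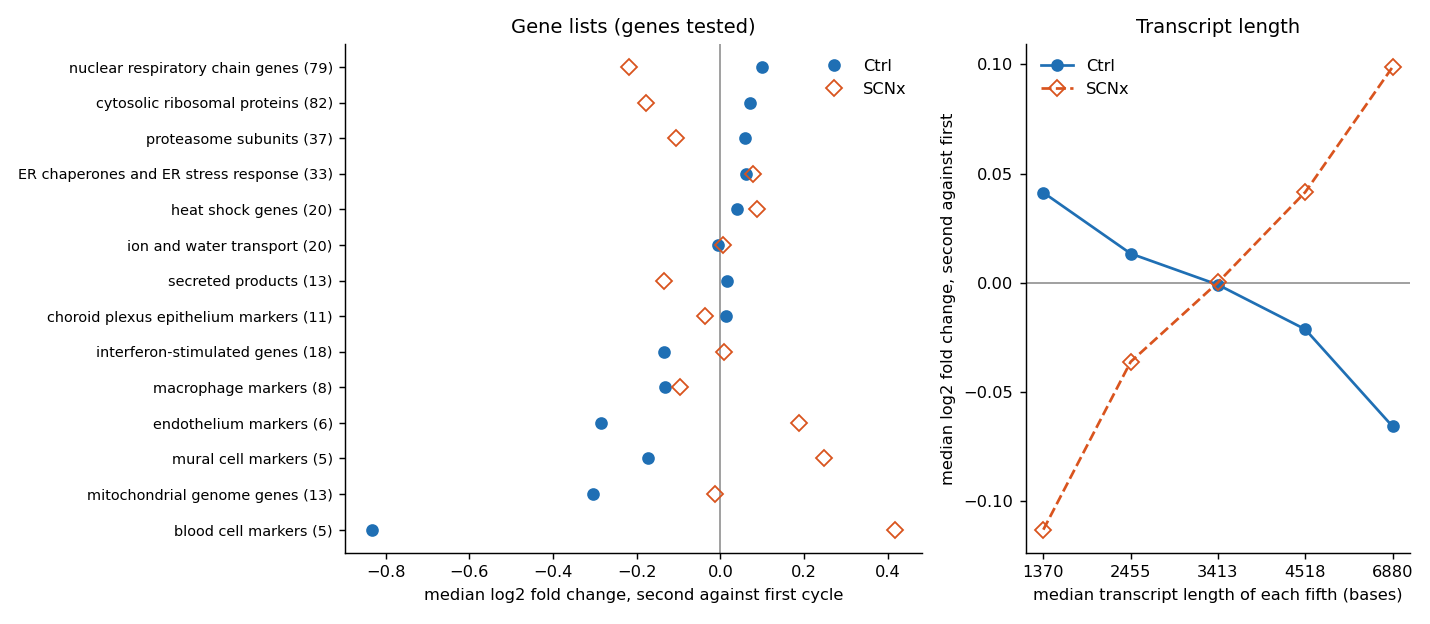
Left, median log2 fold change (second against first cycle) over the tested members of 14 gene lists (number in brackets) in Ctrl (filled circles) and SCNx (open diamonds); right, the same median for 5 classes of genes of rising transcript length (median length in bases). In Ctrl the medians fall from 0.04 for the shortest to -0.07 for the longest genes and in SCNx they rise from -0.11 to 0.10.

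The 10 genes ranked highest for a higher level did not pass. All 10 were higher at 6 of 6 phases, beside 3.07% of all tested genes, and the choice by p for the level favours such a course. Got1, the cytosolic aspartate aminotransferase, stood at 116, 116, 115, 116, 120 and 129 CPM and at 129, 122, 123, 129.5, 133 and 138 CPM. Apart from Ctrl CT20 every mouse of the first cycle was below every mouse of the second, for a log2 fold change of 0.12 ± 0.03 (edgeR, Benjamini-Hochberg adjusted p = 0.5123). Mtx2, a sorting protein of the outer mitochondrial membrane, was at 33.8 to 37.2 CPM in the first cycle and at 37.1 to 41.5 in the second (0.14 ± 0.03). Rpp14, Macrod1, Elp5, Rgs3, A330048O09Rik and Arf2 were higher by 0.13 to 0.27, and Ndufa12-ps, a pseudogene that shares reads with Ndufa12 and is therefore uncertain, by 0.83 ± 0.14 (adjusted p = 0.2771 in the same edgeR test).

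The nuclear genes of the respiratory chain had small positive fold changes throughout. Of 79 tested members all 79 had a positive log2 fold change, beside 46% of all tested genes. Their median was 0.10 beside -0.01 over all genes. An unadjusted p under 0.05 was found for 33, beside 569 higher genes among all 13773. None passed edgeR's Benjamini-Hochberg adjustment (smallest adjusted p = 0.5325). Their summed level was 9885 to 11310 CPM in the first cycle and 10750 to 11410 CPM in the second, higher at 6 of 6 phases with overlapping ranges. Ndufb6, a subunit of complex I, stood at 44.5, 45.0, 45.1, 44.0, 45.7 and 51.4 CPM and at 50.3, 50.1, 49.0, 44.7, 51.2 and 56.2 CPM (0.13 ± 0.03). Atp5g3, a subunit of the ATP synthase ring, lay between 249 and 279 CPM and then between 283 and 313.5 CPM, without overlap. The 82 ribosomal protein genes had a median of 0.07 (0.04 without the CT0 pair and 0.11 without the CT4 and CT16 pairs), with 81 positive and 13 at p under 0.05, and the 37 proteasome subunits 0.06, with 32 positive and 11 at p under 0.05, and none was called.

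DESeq2's Wald test, run as an alternative, called 35 genes higher (0.254% of those tested) and 10 lower (0.0726%), none of them rich in Ctrl CT16 and none among the 5 that edgeR called. The 35 included 8 of the respiratory chain (Atp5pb, Atp5g1, Atp5g3, Atp5b, Atp5c1, Atp5h, Uqcrc2 and Sdhc), the ADP/ATP and phosphate carriers Slc25a4, Slc25a5 and Slc25a3, the glycolytic enzymes Pgk1, Gapdh, Aldoa and Pgam1, and Car2, the carbonic anhydrase that serves fluid secretion. Car2 was higher at 6 of 6 phases by 0.13 ± 0.04 in edgeR. The 10 lower genes included Igf1r, a receptor of insulin-like growth factor, Utrn and Sptbn1, which encode large proteins of the membrane skeleton, and Hbb-bs, a beta globin. Genes of this paragraph other than Atp5g3, Car2, Igf1r and Hbb-bs were chosen after their values had been seen.

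Other lists had lower medians in the second cycle, again without a call. All 5 tested blood cell markers, mostly globins, were negative with p under 0.05 before adjustment and a median of -0.84. Over all 13773 tested genes 7438 were negative, and 677 were lower at p under 0.05. Hbb-bs stood at 184, 493, 434, 273, 524 and 309 CPM and at 98.9, 339, 329, 172, 96.4 and 211 CPM, lower at 6 of 6 phases (-0.90 ± 0.25, edgeR Benjamini-Hochberg adjusted p = 0.5325). The 13 genes of the mitochondrial genome were all negative with a median of -0.31, and their summed level was 44050 to 83690 CPM in the first cycle and 35310 to 66740 CPM in the second, higher at CT44 than at CT20 and lower in the other 5 pairs. Their median was -0.12 without the CT4 and CT16 pairs and -0.48 without the CT20 pair. All 6 endothelium markers (median -0.29), all 5 mural cell markers (-0.18) and all 8 macrophage markers (-0.14) had negative fold changes, and so had 15 of 18 interferon-stimulated genes (-0.14). The summed level was nevertheless higher in the second cycle in 2 of 6 pairs for endothelium and for macrophage markers and in 1 of 6 for mural cells. Without the CT16 pair the endothelium median was -0.13, that of the mural cells -0.10 (2 of 5 positive), that of the macrophages -0.06 and that of the interferon-stimulated genes -0.08. Without the CT4 pair the endothelium and mural medians were -0.47 and -0.52, the mural median was -0.32 without the CT0 pair and -0.11 without the CT8 pair, and the macrophage median was -0.23 without the CT12 pair. Without both the CT4 and CT16 pairs the mural median was -0.29, the macrophage median -0.03 (3 of 8 positive) and the interferon median -0.06. The astrocyte and neuron medians of -0.49 each rested on Ctrl CT4 and Ctrl CT16, and without those 2 phase pairs they were 0.32 and 0.33. How far blood, vessel and mitochondrial RNA took part in the shift of the other lists was not tested.

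The lists of the epithelium had medians near 0. The 11 epithelium markers had a median of 0.01, the 20 genes of ion and water transport -0.01, and the 13 secreted products 0.01. None of these genes were called. Over 16 settings, the main one included, these medians ran from -0.0017 to 0.043, from -0.030 to 0.027 and from -0.014 to 0.038, on both sides of 0. Vegfa, the vascular growth factor, was at 141, 103, 109, 110, 109 and 117 CPM and at 124.5, 103, 96.0, 103, 106 and 113 CPM (-0.09 ± 0.03, edgeR Benjamini-Hochberg adjusted p = 0.5325). Among genes that respond to hormones and feeding, Zbtb16, a target of the glucocorticoid receptor, was at 1.98, 3.39, 3.05, 10.8, 5.51 and 3.15 CPM and at 0.684, 0.716, 1.85, 13.2, 1.83 and 3.79 CPM (-0.88 ± 0.36), and Klf15, which is induced by fasting, was higher by 0.17 ± 0.05. Klf4, an immediate early factor, was lower by 0.41 ± 0.11 on the log2 scale at 5 of 6 phases, and Stat2, a transducer of interferon signals, by 0.19 ± 0.05 at 6 of 6. None of these passed (edgeR, Benjamini-Hochberg adjusted p from 0.5325 to 0.5349). Klf15 and Klf4 went against most of their lists. Of 13 tested genes of fasting and insulin response 10 were negative (median -0.04), and of 20 immediate early genes 12 were positive (median 0.02). Of 15 genes of the glucocorticoid receptor and its targets 10 were negative (median -0.05). Over all tested genes 46% were positive.

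Transcript length moved with the shift. In 5 classes of equal size, with median lengths of 1370.5, 2455, 3413, 4518 and 6879.5 bases, the median log2 fold change was 0.04, 0.01, -0.00, -0.02 and -0.07. The shortest class held 244 genes higher and 68 lower at p under 0.05, and the longest 13 higher and 303 lower. The respiratory chain genes have a median length of 1001 bases, the ribosomal proteins 1076.5 and the proteasome subunits 1883. Among the 2601 genes of the shortest class outside these lists, 63.6% were positive with a median of 0.04, beside 46% of all tested genes. The part of length in the medians of the lists was not tested.

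In SCNx mice sampled at the same times the respiratory chain, ribosomal protein and proteasome lists had medians of the opposite sign. Single SCNx libraries stood apart. SCNx CT0 held 12730 CPM of hepatocyte markers against at most 16.9 in the others, SCNx CT32 held 740 CPM of astrocyte and 384.5 CPM of neuron markers with the lowest sum of epithelium markers (106200 CPM against 140500 or more), and SCNx CT44 held 6653 CPM of blood cell markers against at most 1458. All 79 respiratory chain genes, all 82 ribosomal proteins and all 37 proteasome subunits were negative in SCNx, with medians of -0.22, -0.18 and -0.11. Over all 13773 tested genes 6626 were negative in SCNx. The medians by length ran there from -0.11 for the shortest to 0.10 for the longest class. Without the SCNx pairs of CT0 and CT8 and the Ctrl pairs of CT4 and CT16, left out of the lists after the data had been seen, 77 of 79, 81 of 82 and 27 of 37 were negative in SCNx, with medians of -0.10, -0.07 and -0.04. The test of the difference between the groups called 0 genes in edgeR (0%, smallest Benjamini-Hochberg adjusted p = 0.2422), with 2359 (17.1%) at p under 0.05, among them 74 of the 79 respiratory chain genes (1407 and 53 without those pairs), and DESeq2's Wald test called 158. Cycs, which encodes cytochrome c, stood at 113, 108, 106, 106, 103 and 122.5 CPM and at 124, 118, 115, 107, 121 and 132 CPM in Ctrl, and at 123, 116, 116, 124, 136 and 121.5 CPM and 109, 112, 87.3, 110, 118 and 113 CPM in SCNx. It was higher at 6 of 6 phases in Ctrl (0.12) and lower at 6 of 6 in SCNx (-0.19), and H2az1, a histone variant, Mtx2 and Pam16, a part of the mitochondrial import motor, did likewise, as did Oaz1-ps, a pseudogene with uncertain counts, in 5 of 6 Ctrl pairs. These 5 genes were named for the lowest p in the test of this difference, so the choice itself favours opposite directions. The share of all genes with such a course was not counted. In this fit the median of the blood cell markers was -0.83 for Ctrl and 0.42 for SCNx, and that of the endothelium markers -0.29 and 0.19. With 1 SCNx pair left out in turn, the blood cell median in SCNx ran from -0.31 (without CT20 and CT44) to 1.02 (without CT8 and CT32), and it was also negative without CT12 and CT36 (-0.05). Their part in the difference was not tested.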

How the data were processed

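RNA-seq was run on polyadenylated RNA of the choroid plexus of single mice. The authors processed the reads with the nf-core/rnaseq pipeline against GRCm39 with the Ensembl 104 annotation, with cutadapt 3.4, STAR, Salmon 1.9.0 and SAMtools 1.16.1 named in the submitters' processing notes, and deposited, without normalization, the estimated counts that Salmon gives for each gene. These were rounded to whole numbers here. Salmon shares reads among near-identical copies, so that pseudogenes are uncertain.

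TMM scaling and the main tests used edgeR 4.0.16 (R 4.3.3; factors 0.956 to 1.06). Genes with a mean of at least 1 CPM over the 12 Ctrl libraries were tested, with Benjamini-Hochberg adjustment over all of them at 0.05. Level was fitted with the 6 phases as a block and the cycle as a term, which leaves 5 residual degrees of freedom and cannot tell a step from a linear drift. Rhythms were fitted with cosine and sine terms of 24 h and a mean for each cycle (6 residual degrees of freedom), and amplitudes, times of peak and intervals come from log2 CPM with a prior count of 2 in limma 3.58.1. Amplitude and phase were tested with limma along and across the common phase. The phase pairing comes from the times on the labels, and each pair is of different mice. Checked over all tested genes, 4 of 6 pairs of equal phase had a correlation of their deviations over 0.1.

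Genes are given by the symbols of the deposited table. Transcript lengths come from GENCODE vM21 and promoters from RefSeq, both on GRCm38, matched by gene identifier or symbol; 99.8% of tested genes had a length. Coordinates on GRCm39 were not used here.

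The members and gene lists were chosen with earlier results of these data known. Named genes are the clock lists, the 10 genes lowest by p in each direction for the level, the 10 lowest by p for the difference of rhythm, the 5 in each direction for a change of amplitude among genes with a common rhythm, the 10 lowest by p for the rhythm of each cycle, the 2 lowest by p for the level from every other list, and the 5 lowest by p for the contrast of the Ctrl and SCNx shifts. Other members of the ER, heat shock and cold-inducible lists (Hspa5, Calr, Sdf2l1, Creld2, Manf, Herpud1, Xbp1, Chordc1, Fkbp4 and Hsp90aa1), most genes called by DESeq2 alone and Mup19 were named after their values had been seen. Alternatives were other blocks, filters and scalings, DESeq2 1.42.0, limma-trend and the removal of each library or pair. The scripts were tested on simulated data. The 2 libraries of the Bmal1 line were not used here, and values of some listed genes are not reported here.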

Additional observations from a re-analysis of the deposited data

Results flagged for a closer look

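In groups of 6 libraries, the highest or lowest was marked where its gap to the nearest other library was above Dixon's 95% critical value as a share of the range, which chance does for about 1 in 20 groups. Of 142 groups 31 were marked. Most of the marked groups were of liver genes, which had been named for a low p for the level in these same libraries. Those genes are high together in the same mice, so their marks are not separate events. The number marked therefore cannot be set against the share given by chance.

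In the sums of lists, the first cycle had Ctrl CT16 apart for hepatocyte markers (2780 CPM) and sterol synthesis (1395 CPM, next 1188), and Ctrl CT4 apart for neuron and cerebellum markers (355.2 CPM), oligodendrocyte markers (149.5 CPM, next 87.43) and astrocyte markers (655.4 CPM). In the second cycle Ctrl CT40 stood apart for hepatocyte markers (42.8 CPM), Ctrl CT28 for mural cell markers (382.5 CPM, next 212.4) and Ctrl CT44 for ribosomal protein genes (12400 CPM, next 11150).

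Among named genes, Ctrl CT36 was apart for Ciart (17.49 CPM, next 6.519), whose narrow crest has a single sample per cycle, and Ctrl CT20 for Got1 (128.8 CPM) and Rpp14 (32.44 CPM).

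Ctrl CT16 and Ctrl CT40 were each the highest of their cycle for 10 liver genes. The levels in these libraries were 281.4 and 2.402 CPM for Fgb, 338.2 and 3.224 CPM for Fga, and 175.5 and 2.466 CPM for Orm1. For Saa2 they were 349.9 and 6.469 CPM, for Fgg 197.8 and 1.96 CPM, and for Pzp 201 and 1.665 CPM. Mup11 stood at 29.42 and 0.3793 CPM, Hamp at 21.15 and 0.4215 CPM, Apoa4 at 14.88 and 0.1686 CPM, and Apon at 14.7 and 0.1475 CPM. Both libraries are of the same phase, and each is a single mouse.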

How the results depend on the processing

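The 5 lower genes of the level comparison became 0 with no replicate block (the phase pairing left out), with a cosine and sine in place of the block, with a median of at least 1 CPM, without the phase pairs of CT4 and CT16, and in limma-trend. There were 13 with library size alone as the scaling, an alternative chosen after seeing the data. DESeq2 called 10 lower and 35 higher, and 0 of the 5 were among its 10. A covariate split the libraries by whether the number in the column headers was 60 or more, as for CT4, CT16, CT20, CT24, CT36 and CT40. With it there were 5 lower and 0 higher, but Orm1 and Saa2 missed the threshold (edgeR Benjamini-Hochberg adjusted p = 0.0795 and 0.0588). Without a filter there were 46 lower and 2 higher. Leaving out each pair in turn gave 0 to 25 lower genes, with 25 without CT4 and CT28, 1 without CT20 and CT44 and 0 without CT16 and CT40, and no higher gene.

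Rhythms in the second cycle numbered 286 at a minimum of 5 CPM, 71 without a filter and 481 without Ctrl CT4 and Ctrl CT16. Common rhythms numbered 1244 without a filter and 3098 without these 2 libraries. A difference of rhythm was called for 2 genes by DESeq2 (Rpl27-ps3 and Gm37212), and a difference between the Ctrl and SCNx shifts for 158. Leaving out each library gave 62 to 316 rhythms in the first cycle. The count was 316 without Ctrl CT4, 101 without CT8, 110 without CT12, 62 without CT16, 106 without CT20, 135 without CT24, 114 without CT28 and 116 without CT32. In the second cycle the range was 16 to 410, with 410 without Ctrl CT4, 84 without CT8, 91 without CT12, 100 without CT16, 71 without CT20, 49 without CT24, 30 without CT28, 29 without CT32, 16 without CT36, 49 without CT40 and 33 without CT44. Common rhythms ranged from 1276 to 2534, with 1332 without Ctrl CT20, 1299 without CT36 and 1276 without CT44, and differences of rhythm from 0 to 1, the latter without Ctrl CT12. A fit with 1 mouse fewer leaves 5 points for 3 terms in its cycle. Clock genes with a rhythm ranged from 8 to 14 in the first cycle and from 5 to 16 in the second. The median fold changes of the astrocyte and neuron markers turned from -0.49 each to 0.32 and 0.33 without the CT4 and CT16 pairs, and that of the glucocorticoid receptor and its targets from -0.05 to 0.06. The effect of depth was not tested.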
